A study of Mus musculus with 7 samples.

Results

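The Slc25 family is the set of membrane carriers that exchange small molecules across the inner mitochondrial membrane. Its members were taken as every row of the deposited count table whose symbol starts with Slc25a, which gave 44 of 23337 genes, and each was assigned a substrate from general knowledge of the family. The carriers were measured by RNA sequencing in sorted mouse cardiomyocytes at postnatal day 30 (P30, 3 libraries, P30a to P30c) and postnatal day 6 (P6, 4 libraries, P6a to P6d). All mice carried the genotype given as Rosa-Tom/Cas9, that is a Rosa-Tom or a Rosa-Cas9 allele, and at both ages AAV9-cTNT-Cre had been given on postnatal day 1. This is an adeno-associated virus that expresses Cre recombinase under the cardiac troponin T promoter, so Cre is made where that promoter is active, as in cardiomyocytes. Time since the virus therefore rises with age, and the 2 cannot be told apart. The allele of each mouse and whether the libraries came from separate animals are not stated, so part of the spread behind the p-values may be technical. The treatment text names day 14 for collection, whereas the titles, the age labels and the series design name day 6 or day 30, which were used here.

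Slc25 proteins are small, built from repeats of the same fold, and most work as exchangers that let in one metabolite while another leaves. In a cardiomyocyte the ADP/ATP and phosphate carriers feed ATP synthase and export its product, the carnitine carrier brings fatty acids in for oxidation, and the malate and aspartate carriers move the reducing power of glycolysis into the matrix. Other members bring in cofactors, iron, glutathione, glycine for heme and nucleotides for mitochondrial DNA and RNA. Around birth and in the weeks after it the heart turns from glucose towards fatty acids as fuel and fills with mitochondria.

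Total counts were 15555469 to 19368717 in the P30 libraries and 10594932 to 51427646 in the P6 libraries. Levels are given as CPM, counts scaled to library sizes, which were in turn adjusted by the trimmed mean of M values (TMM). A count of 3 corresponded to 0.167 to 0.210 CPM in the P30 libraries and to 0.0553 to 0.271 CPM in the P6 libraries. Genes with a count numbered 15720 to 18223 in the P30 libraries and 14476 to 15692 in the P6 libraries. Defining cardiomyocyte markers summed to 116108 to 120815 CPM at P30 and 81178 to 100757 CPM at P6, with 3 of 8 higher at P30 and 0 lower. That sum leaned on Myh6, with 57300 ± 2252 CPM at P30 and 33636 ± 5693 CPM at P6 (SD). Tnnt2, Actn2, Myl2 and Pln had log2 fold changes, P30 over P6, of -0.07, -0.16, -0.33 and -0.27. Actc1 had 0.20, and none of these passed the threshold. Among markers of other cells, 6 of 8 endothelial genes were higher at P30 (summed 294 to 597 CPM, against 113 to 224 CPM at P6). All 6 tested macrophage genes were also higher (11.2 to 36.5 CPM, against 1.92 to 4.47 CPM at P6), as were 4 of 7 mural genes (977 to 1819 CPM, against 973 to 2187 CPM at P6). Of 7 tested fibroblast genes 0 were higher and 1 was lower (137 to 313 CPM, against 158 to 391 CPM at P6). Erythroid markers summed to at most 0.517 CPM at P30 and 1.33 CPM at P6, with Hba-a1 and Hba-a2 listed at 0 in every library. These are near-identical copies, and how reads that match both were handled is not known. Adipocyte markers summed to 37.5 to 40.5 CPM at P30 and 53.4 to 73.5 CPM at P6, and the 1 tested, Cidea, was lower at P30. Nearly all of that sum was Cidea, with 38.5 CPM at P30 and 66.8 CPM at P6 on average. Adipoq, Plin1, Lep, Ucp1 and Cfd had at most 0.772 CPM in any library, so the sum does not measure adipocytes. Of 8 genes of the response to cell dissociation, 7 were higher at P30 (1115 to 2077 CPM, against 227 to 300 CPM at P6). The part of these differences in the results that follow was not tested. By the edgeR test described below, 26.3% of all tested genes were higher at P30 and 27.8% were lower. In bulk RNA, fewer cells of a type and less RNA per cell cannot be told apart.

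The comparison asked which carriers differ between P30 and P6 cardiomyocytes. At P30 the main heart ADP/ATP carrier, the 2-oxoglutarate/malate and aspartate/glutamate carriers of the malate-aspartate shuttle, and the carriers of glycine and basic amino acids were higher, and the second ADP/ATP carrier, the citrate carrier, the dicarboxylate/phosphate carrier Slc25a10 and the carnitine carrier were lower. Of the 44 members, 38 had enough counts to be tested, and the other 6 (Slc25a2, Slc25a18, Slc25a21, Slc25a41, Slc25a43, Slc25a48) did not. By edgeR's quasi-likelihood test at an adjusted p of 0.05 over all genes, 28 of the 38 were called, 73.7%, beside 54.1% of the 12561 genes tested. There were 18 members higher at P30, 47.4% beside 26.3% of all genes, and 10 lower, 26.3% beside 27.8%. At least a 2-fold difference was called in 8 members, 21.1% beside 23.0% of all genes, so this share does not stand out from the background. The median log2 fold change, P30 over P6, was 0.32 over the tested members and -0.02 over all genes. The CPM ranges of the 2 ages did not overlap in 26 of the 38 members, beside 56.6% of all genes. These counts leave out the untested members, and 2 of those tested (Slc25a31 and Slc25a45) reached the filter's level of 0.613 CPM in at most 1 library of 1 age.

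**Figure D1:**
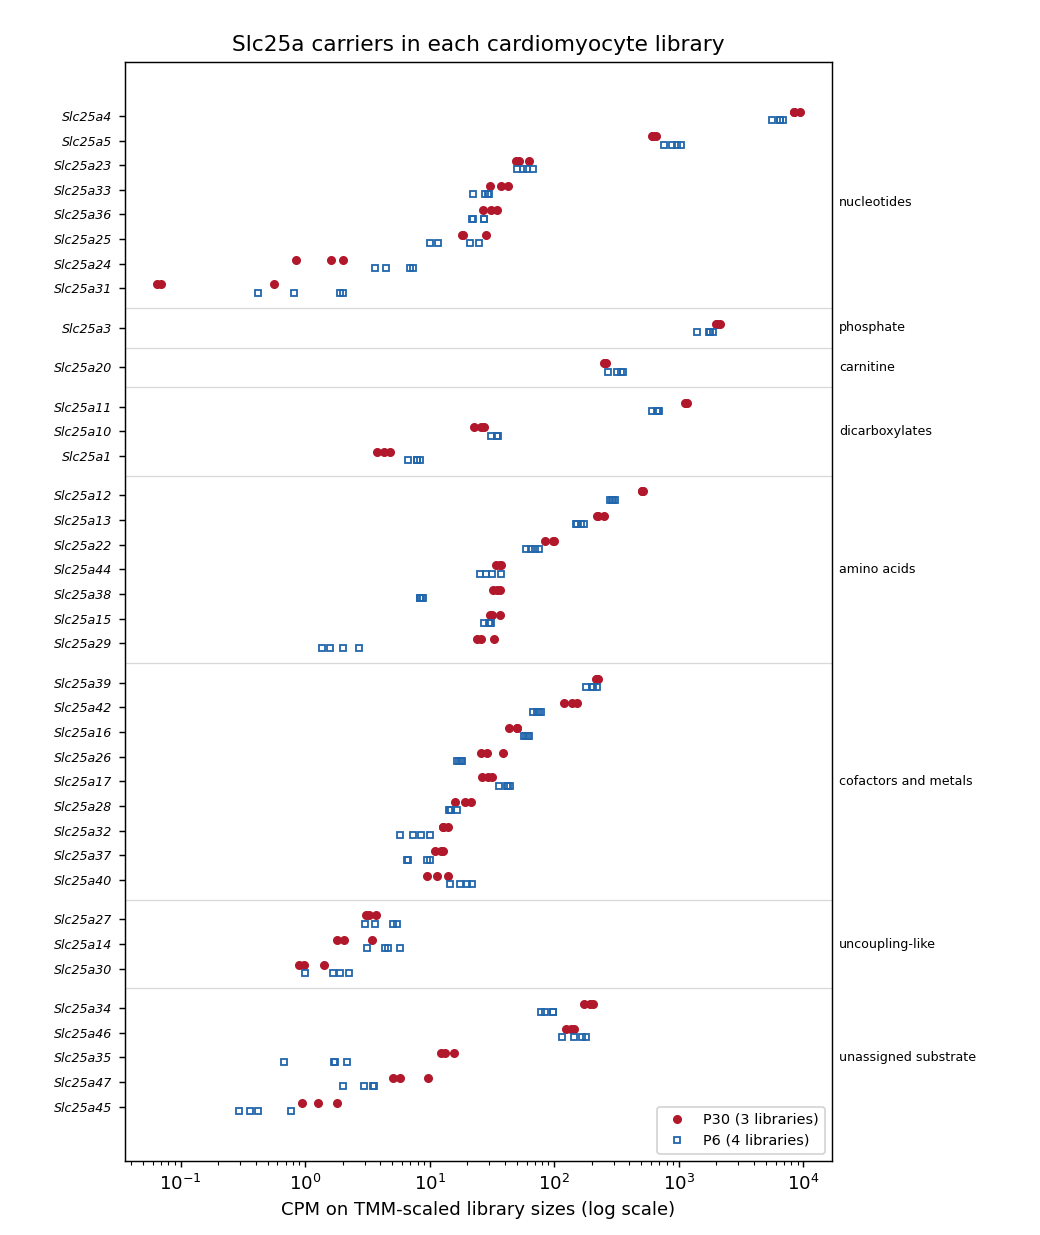
CPM (log scale) of 37 of the 38 tested Slc25a carriers in each library, grouped by substrate; filled circles are the 3 P30 libraries and open squares the 4 P6 libraries. Slc25a4 has the highest counts at both ages, and the points of the 2 ages stand furthest apart for Slc25a29, Slc25a35 and Slc25a38.

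**Figure D2:**
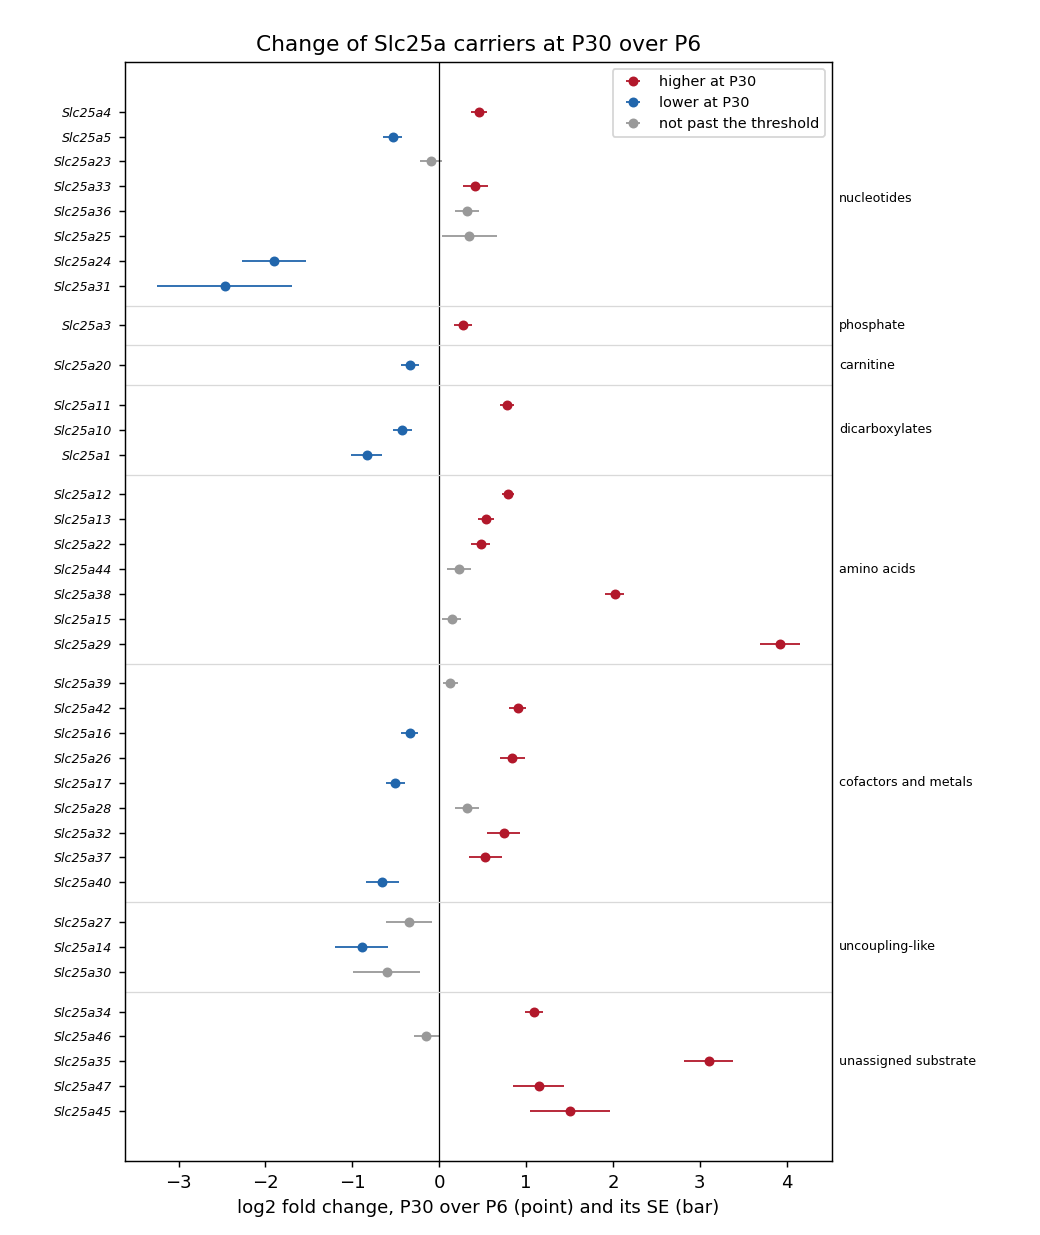
Log2 fold change, P30 over P6, of 37 of the 38 tested carriers by substrate, with bars for the SE; red marks members higher at P30, blue those lower and grey those not past an adjusted p of 0.05. Amino acid carriers have 5 members called higher and 0 called lower, and nucleotide carriers 2 and 3, beside 26.3% and 27.8% of all genes.

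Of 8 tested nucleotide carriers 2 were higher at P30 (25%, beside 26.3% of all genes), 3 were lower (37.5%, beside 27.8%) and 3 were not called. Slc25a4 (ANT1), the ADP/ATP exchanger of heart and muscle, had 8406, 8442 and 9387 CPM in P30a to P30c, against 6514, 5580, 6485 and 6882 CPM in P6a to P6d. Every P30 library was above every P6 library. The log2 fold change was 0.46 ± 0.09 (SE; edgeR adjusted p = 0.0019), a 1.37-fold rise. Slc25a5 (ANT2), the ADP/ATP exchanger of proliferating tissues, had 627, 611 and 654 CPM in P30a to P30c, against 879, 760, 975 and 1044 CPM in P6a to P6d. All P30 libraries were lower, with a log2 fold change of -0.54 ± 0.11 (SE; edgeR adjusted p = 0.0028). With a transcript length trend removed, that change was -0.34 (edgeR adjusted p = 0.0060). Annotated pseudogenes include 7 near copies of Slc25a5 (at least 90% identity over at least 300 bases) and none of Slc25a4, so the count of Slc25a5 depends on how such reads were assigned. Slc25a3, Slc25a36 and Slc25a40 have 1 such copy each. Matches at that level to genes not annotated as pseudogenes number 3 for Slc25a37, 2 for Slc25a46, 1 for Slc25a44 and 1 for Slc25a35. Of these, Gm31748 (Slc25a37), B930094E09Rik (Slc25a46) and Rangrf (Slc25a35) share exon bases with the carrier gene on the other strand. The counts of all these carriers depend on read assignment as well. The gene for ANT4, Slc25a31, known from male germ cells, was near the floor at P30, with 0.558, 0.0646 and 0.0701 CPM in P30a to P30c, against 0.814, 1.90, 2.03 and 0.422 CPM in P6a to P6d. Slc25a31 reached the filter's level of 0.613 CPM in 3 P6 libraries and 0 P30 libraries. The ranges overlapped, and the log2 fold change of -2.47 ± 0.78 (SE; edgeR adjusted p = 0.023) rested on 12 counts at P30 and 181 at P6. It was -4.24 without P30a, and its adjusted p was 0.0811 without P30b and 0.0746 without P30c.

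The ATP-Mg/phosphate carriers adjust the adenine nucleotide pool of the matrix and are regulated by calcium. Slc25a24 (SCaMC-1) had 1.62, 2.004 and 0.842 CPM in P30a to P30c, against 3.62, 4.46, 6.93 and 7.34 CPM in P6a to P6d. It was low at both ages and lower at P30 without overlap, with a log2 fold change of -1.90 ± 0.37 (SE; edgeR adjusted p = 0.0019). Its relative Slc25a23 (SCaMC-3) ranged over 49.5 to 63.0 CPM at P30 and 49.97 to 67.2 CPM at P6, and the test did not call it (-0.10 ± 0.13, SE). Slc25a25 (SCaMC-2) was uneven within each age, with 18.5, 28.5 and 18.0 CPM in P30a to P30c, against 20.99, 25.1, 11.8 and 10.1 CPM in P6a to P6d, and was not called either. Another relative, Slc25a41, had 1 count in all libraries together. Of the pyrimidine nucleotide carriers, Slc25a33 (PNC1) had 30.6 to 42.5 CPM at P30 and 22.5 to 29.8 CPM at P6 (log2 fold change 0.42 ± 0.14, SE; edgeR adjusted p = 0.033). That call was lost without P6a (0.0611), P6d (0.0729), P30a (0.0871) or P30c (0.135), and with library totals in place of TMM (0.207), all as edgeR adjusted p-values. Slc25a36 (PNC2) had a log2 fold change of 0.32 ± 0.14 (SE; edgeR adjusted p = 0.069) and passed the threshold without P30b (0.0471).

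Slc25a3, the carrier that brings phosphate to ATP synthase and also copper to the matrix, had 1992, 2014 and 2150 CPM in P30a to P30c, against 1747, 1400, 1769 and 1877 CPM in P6a to P6d. The P30 libraries were all above the P6 libraries, by a small margin. The log2 fold change of 0.27 ± 0.10 (SE) lay at the threshold (edgeR adjusted p = 0.0492). Leaving out any P30 library ended the call (adjusted p 0.0887 without P30a, 0.0926 without P30b, 0.135 without P30c), as did leaving out P6a (0.0761) or P6c (0.0742). With library totals the log2 fold change was 0.10 (adjusted p = 0.393), and without the low-count filter the adjusted p was 0.0530. With a transcript length trend removed, the log2 fold change was 0.39 (edgeR adjusted p = 0.0018).

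The carnitine carrier was lower at P30 while most other genes of its route were higher. Slc25a20 (CACT), which exchanges acylcarnitines for carnitine, had 256, 250 and 261 CPM in P30a to P30c, against 319, 269, 343 and 358 CPM in P6a to P6d. The highest P30 library stood just under P6b. The log2 fold change was -0.33 ± 0.10 (SE; edgeR adjusted p = 0.022), and the adjusted p was 0.0546 without P6c, 0.0642 without P30a and 0.0743 without P30b. With a transcript length trend removed, the log2 fold change was -0.24 (edgeR adjusted p = 0.0335). Of 5 other genes of the carnitine route, 3 were higher at P30 and 1 was lower, beside 26.3% and 27.8% of all genes. Cpt2, which returns acylcarnitines to acyl-CoA inside the matrix, had 535 ± 13.8 CPM at P30 and 340 ± 31.7 CPM at P6 (SD, n = 3 and n = 4), a log2 fold change of 0.66. Slc22a5, the carnitine transporter of the cell membrane, had 44.1 ± 4.15 CPM at P30 and 25.6 ± 1.98 CPM at P6. Cpt1b, the muscle form of the enzyme that makes acylcarnitines, had 18.0 ± 0.613 CPM at P30 and 13.6 ± 0.441 CPM at P6, and its liver form Cpt1a had 75.4 ± 9.96 CPM at P30 and 170 ± 17.3 CPM at P6. Crat, a carnitine acetyltransferase, was not called.

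Of 3 tested dicarboxylate carriers 1 was higher at P30 (33.3%, beside 26.3% of all genes) and 2 were lower (66.7%, beside 27.8%). Slc25a11 (OGC), which exchanges 2-oxoglutarate for malate, had 1139, 1116 and 1162 CPM in P30a to P30c, against 663, 610, 677 and 699 CPM in P6a to P6d. The groups stood far apart, with a log2 fold change of 0.78 ± 0.08 (SE; edgeR adjusted p = 3.8e-05), a 1.72-fold rise. Slc25a1 (CIC), which exports citrate, the starting point of fatty acid synthesis in the cytosol, had 4.30, 3.81 and 4.84 CPM in P30a to P30c, against 8.32, 7.86, 7.87 and 6.67 CPM in P6a to P6d. Its log2 fold change was -0.83 ± 0.18 (SE; edgeR adjusted p = 0.0034). Slc25a10 (DIC), which exchanges malate or succinate for phosphate, had 22.6, 27.5 and 25.8 CPM in P30a to P30c, against 35.3, 34.6, 34.7 and 31.1 CPM in P6a to P6d (log2 fold change -0.42 ± 0.11, SE; edgeR adjusted p = 0.0096). Neither gene's P30 range reached its P6 range. Slc25a21 (ODC), an oxodicarboxylate carrier, had 4 counts at P30 and 8 at P6 and was not tested.

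Amino acid carriers were higher at P30 in 5 of 7 tested members (71.4%, beside 26.3% of all genes), with 0 lower (beside 27.8%) and 2 not called. The aspartate/glutamate carriers complete the malate-aspartate shuttle together with Slc25a11, and calcium regulates them. Slc25a12 (aralar) had 514, 506 and 511 CPM in P30a to P30c, against 283, 295, 310 and 291 CPM in P6a to P6d. The libraries of each age lay close together, and the log2 fold change was 0.79 ± 0.07 (SE; edgeR adjusted p = 2.5e-05). Slc25a13 (citrin) had 225, 253 and 220 CPM in P30a to P30c, against 175, 153, 149 and 165 CPM in P6a to P6d, a log2 fold change of 0.54 ± 0.09 (SE; edgeR adjusted p = 0.00085). Of the 4 enzymes of the shuttle, 3 were higher at P30 and 0 were lower, beside 26.3% and 27.8% of all genes. Got1, the cytosolic aspartate aminotransferase, had 1017 ± 121 CPM at P30 and 526 ± 23.7 CPM at P6 (log2 fold change 0.95). Its mitochondrial counterpart Got2 had 1033 ± 16.8 CPM at P30 and 722 ± 27.6 CPM at P6 (0.52), and Mdh1, the cytosolic malate dehydrogenase, had 4571 ± 322 CPM at P30 and 3636 ± 383 CPM at P6 (0.33). Mdh2, the mitochondrial form, had a log2 fold change of 0.12 and was not called.

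The remaining amino acid carriers included the gene with the largest fold rise of the tested members. Slc25a29, a carrier of basic amino acids, had 25.8, 24.0 and 32.8 CPM in P30a to P30c, against 2.71, 1.37, 1.59 and 2.03 CPM in P6a to P6d. This was a 15.2-fold rise, with a log2 fold change of 3.92 ± 0.23 (SE; edgeR adjusted p = 2.1e-06). Slc25a38, which imports glycine for the first step of heme synthesis, had 36.5, 32.5 and 34.9 CPM in P30a to P30c, against 8.32, 8.72, 8.31 and 8.78 CPM in P6a to P6d. Its values were nearly the same within each age, and the rise was 4.06-fold (log2 fold change 2.02 ± 0.11, SE; edgeR adjusted p = 1.6e-06). Among 7 tested genes of iron-sulfur and heme synthesis 4 were higher at P30 and 0 lower, beside 26.3% and 27.8% of all genes. Alas1, which condenses that glycine with succinyl-CoA, had 613 ± 81.8 CPM at P30 and 414 ± 13.9 CPM at P6. Fech, which inserts iron into the porphyrin ring, had 258 ± 14.1 CPM at P30 and 220 ± 10.1 CPM at P6. Nfs1, the cysteine desulfurase that supplies sulfur, had 218 ± 6.30 CPM at P30 and 136 ± 3.80 CPM at P6.

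Slc25a22 (GC1), a glutamate carrier, had 85.0, 99.5 and 98.3 CPM in P30a to P30c, against 75.6, 70.7, 64.8 and 59.4 CPM in P6a to P6d (log2 fold change 0.48 ± 0.11, SE; edgeR adjusted p = 0.0041). The ornithine carrier of the urea cycle, Slc25a15, had 30.6 to 36.6 CPM at P30 and 27.5 to 31.0 CPM at P6 and was not called (0.14 ± 0.11, SE), and its sign turned with library totals (-0.04). Slc25a44, a carrier of branched-chain amino acids, had 33.8 to 37.6 CPM at P30 and 25.3 to 37.6 CPM at P6 (0.22 ± 0.14, SE), and was called without P6b (edgeR adjusted p = 0.0330). Slc25a2, a carrier of basic amino acids, had 7 counts at P30 and 6 at P6, and the glutamate carrier Slc25a18 had 9 at P30 and 19 at P6, too few to be tested.

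The sequences upstream of the genes for 3 carriers that were at least 2-fold higher at P30 are shown as context for these values: Slc25a29 and Slc25a38, with the largest fold changes of the amino acid carriers, and Slc25a34, which is described further on. They are the parts, outside annotated exons, of the 250 bases before the RefSeq start on GRCm38.p6. Each reads from 5′ to 3′ on the strand of its gene, and capitals mark a CCAAT box or the letters AAGGTCA, on either strand. The runs are chr12:108835884-108836045 (minus strand, 162 bases), chr9:120110132-120110373 (plus strand, 242 bases) and chr4:141623835-141624084 (minus strand, 250 bases).
Slc25a29: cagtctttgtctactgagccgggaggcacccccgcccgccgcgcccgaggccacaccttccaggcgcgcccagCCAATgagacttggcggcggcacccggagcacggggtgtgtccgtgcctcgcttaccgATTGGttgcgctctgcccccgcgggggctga
Slc25a38: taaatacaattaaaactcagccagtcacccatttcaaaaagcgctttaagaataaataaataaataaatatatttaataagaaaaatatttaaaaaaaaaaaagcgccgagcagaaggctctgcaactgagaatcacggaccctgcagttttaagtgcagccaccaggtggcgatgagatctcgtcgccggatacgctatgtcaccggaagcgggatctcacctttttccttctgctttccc
Slc25a34: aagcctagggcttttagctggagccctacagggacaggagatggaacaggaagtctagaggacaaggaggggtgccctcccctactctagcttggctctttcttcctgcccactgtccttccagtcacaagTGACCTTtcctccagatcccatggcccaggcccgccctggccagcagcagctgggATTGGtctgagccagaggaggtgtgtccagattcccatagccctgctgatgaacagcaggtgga

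The 3 stretches differed in composition, with 71.6% G or C and 18 CG dinucleotides for Slc25a29, 40.1% and 11 for Slc25a38, and 58.4% and 1 for Slc25a34. In GENCODE release M21 the Slc25a29 run is the whole of the 162 bases between that gene and Slc25a47, which is transcribed the other way. The CCAAT box was searched as those letters on both strands. The core site of estrogen-related receptors was searched as AAGGTCA on both strands. Its extended form, TNAAGGTCA, holds the core site within it. A CCAAT box was found in 20 of the 43 windows of the 34 members in the RefSeq promoter table, beside 33.8% of all 32851 windows of that length. In the Slc25a4 window CCAAT stood at 112 and 56 bases before the RefSeq start, but a longer GENCODE transcript of the gene begins further upstream, so both lie inside its first exon. The Slc25a5 window held none of these letters. AAGGTCA was found in 1 of the 43 member windows, that of Slc25a34, at 119 bases before the start, beside 4.08% of all windows. The windows of Slc25a45 and Slc25a47, also at least 2-fold higher at P30, held no AAGGTCA. The extended form was found in 0 member windows, beside 1.14% of all windows. These matches describe letters in a window only.

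Carriers of cofactors and metals were divided. Of 10 tested members 5 were higher at P30 (50%, beside 26.3% of all genes), 3 were lower (30%, beside 27.8%) with 2 not called. Slc25a42, which carries coenzyme A, had 138, 154 and 121 CPM in P30a to P30c, against 73.1, 77.8, 75.5 and 67.4 CPM in P6a to P6d. All P30 values were well above all P6 values (log2 fold change 0.90 ± 0.10, SE; edgeR adjusted p = 7.6e-05). Slc25a16, linked to coenzyme A supply as well, had 50.3, 49.9 and 43.4 CPM in P30a to P30c, against 62.1, 57.4, 63.2 and 59.8 CPM in P6a to P6d (-0.34 ± 0.09, SE; edgeR adjusted p = 0.012). Its adjusted p was 0.0549 without P30c. Slc25a17, a peroxisomal carrier of coenzyme A and related cofactors, had 26.5 to 31.5 CPM at P30 and 36.0 to 44.5 CPM at P6 (-0.50 ± 0.11, SE; edgeR adjusted p = 0.0044).

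Slc25a26, which imports S-adenosylmethionine for methylation in the matrix, had 26.0 to 38.5 CPM at P30 and 16.4 to 18.2 CPM at P6 (log2 fold change 0.84 ± 0.14, SE; edgeR adjusted p = 0.00094). Slc25a32, described as a folate or FAD carrier, had 12.8 to 14.0 CPM at P30 and 5.76 to 10.1 CPM at P6 (0.74 ± 0.19, SE; edgeR adjusted p = 0.0091). The ranges of both carriers did not overlap between the ages.

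The mitoferrins import iron for heme and iron-sulfur clusters. Slc25a37 (mitoferrin 1), known from erythroid cells, had 11.1, 12.3 and 12.7 CPM in P30a to P30c, against 6.60, 9.46, 10.0 and 6.67 CPM in P6a to P6d (log2 fold change 0.53 ± 0.19, SE; edgeR adjusted p = 0.036). Of the erythroid markers, the heme synthesis gene Alas2 had 0.112 to 0.452 CPM at P30 and 0.0553 to 1.27 CPM at P6. The call was lost without each single library other than P6b and P6c, with adjusted p-values of 0.0804 (P6a), 0.0857 (P6d), 0.0601 (P30a), 0.0907 (P30b) and 0.0971 (P30c), with limma-voom (0.0596) and with library totals (0.16). Slc25a28 (mitoferrin 2) had 15.9 to 21.6 CPM at P30 and 14.3 to 16.6 CPM at P6 (0.33 ± 0.14, SE; edgeR adjusted p = 0.072) and was called without P30a (0.0343) and with a transcript length trend removed (0.0276). Slc25a39, which imports glutathione, had 215 to 225 CPM at P30 and 181 to 221 CPM at P6 (0.13 ± 0.09, SE, not called), with the opposite sign on library totals (-0.06). Its relative Slc25a40 had 9.57 to 14.1 CPM at P30 and 14.5 to 21.7 CPM at P6 (-0.65 ± 0.19, SE; edgeR adjusted p = 0.014), and its adjusted p was 0.0501 without P30a and 0.0603 without P30b.

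The uncoupling-like carriers, named for their similarity to brown fat's uncoupling protein, were low. At P30 1 of 3 was lower (33.3%, beside 27.8% of all genes) and 2 were not called. Slc25a14 had 2.06, 1.81 and 3.44 CPM in P30a to P30c, against 3.17, 4.39, 4.66 and 5.74 CPM in P6a to P6d. P30c lay above P6a, so the ranges overlapped (log2 fold change -0.89 ± 0.30, SE; edgeR adjusted p = 0.032). The adjusted p was 0.0637 without P6c, 0.0711 without P6d, 0.113 without P30a and 0.112 without P30b. Slc25a27 had 3.09 to 3.74 CPM at P30 and 3.004 to 5.46 CPM at P6, and Slc25a30 had 0.893 to 1.42 CPM at P30 and 0.995 to 2.26 CPM at P6. Of the 6 tested relatives that carry other symbols, 3 were lower at P30 and 0 higher, beside 27.8% and 26.3% of all genes. Ucp2, an uncoupling protein of many tissues, had 121 ± 45.7 CPM at P30 and 413 ± 125 CPM at P6 (-1.77 ± 0.29, SE), and Ucp3, the form of muscle, had 42.4 ± 18.6 CPM at P30 and 91.4 ± 20.9 CPM at P6 (-1.11 ± 0.27, SE). Mtch1, an outer membrane relative, had 169 ± 9.23 CPM at P30 and 285 ± 26.9 CPM at P6 (-0.76 ± 0.10, SE). Mcart1, listed in RefSeq as the NAD carrier Slc25a51, had 105.1 ± 17.4 CPM at P30 and 83.6 ± 16.5 CPM at P6 and was not called.

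Of the members with no substrate assigned here, 4 of 5 tested were higher at P30 (80%, beside 26.3% of all genes) and 1 was not called. This count includes Slc25a45, which passed the filter through its P30 libraries, and Slc25a35, which overlaps another gene. Slc25a34, whose upstream bases are printed above, had 195, 203 and 174 CPM in P30a to P30c, against 83.7, 78.3, 98.2 and 97.1 CPM in P6a to P6d. The ages were clearly apart (log2 fold change 1.09 ± 0.11, SE; edgeR adjusted p = 3.3e-05). Slc25a35 had 13.2, 12.4 and 15.8 CPM in P30a to P30c, against 2.17, 1.73, 1.71 and 0.675 CPM in P6a to P6d, an 8.58-fold rise (3.10 ± 0.28, SE; edgeR adjusted p = 2.4e-05). It shares 1151 exon bases with Rangrf on the other strand. No source used here gives the strand setting of the counting, so reads of the 2 genes in those bases cannot be told apart. Rangrf had 31.0 ± 3.57 CPM at P30 and 16.6 ± 2.03 CPM at P6 (log2 fold change 0.91).

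Slc25a47, known from liver, had 5.80, 5.04 and 9.68 CPM in P30a to P30c, against 2.99, 3.60, 3.502 and 2.03 CPM in P6a to P6d (log2 fold change 1.14 ± 0.29, SE; edgeR adjusted p = 0.0078). Slc25a45 had 0.948, 1.81 and 1.26 CPM in P30a to P30c, against 0.362, 0.766, 0.295 and 0.422 CPM in P6a to P6d (1.51 ± 0.46, SE; edgeR adjusted p = 0.019). Slc25a45 had 63 counts at P30 and 48 at P6, and reached the filter's level of 0.613 CPM in 3 P30 libraries and 1 P6 library. Its adjusted p was 0.0509 without P6c and 0.0946 without P30b. Slc25a46, an outer membrane protein of mitochondrial fission and fusion, had 125 to 146 CPM at P30 and 115 to 179 CPM at P6 and was not called. Slc25a43 had 4 counts at P30 and 51 at P6, and Slc25a48 had none in any library.

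Levels of different carriers were compared as CPM per kilobase of the longest coding transcript. At P30 Slc25a4 led with 4543 ± 289 CPM per kilobase, followed by Slc25a3 (1273 ± 53.2), Slc25a11 (665 ± 13.4), Slc25a5 (508 ± 17.5), Slc25a20 (143 ± 2.97) and Slc25a39 (131 ± 2.91), with no overlap between neighbours. Next came Slc25a12, Slc25a13 and Slc25a34 at 80.4, 74.6 and 71.4 CPM per kilobase, whose neighbouring ranges overlapped. At P6 Slc25a4 (3307) and Slc25a3 (1054) also led, but Slc25a5 (738) stood above Slc25a11 (387), the reverse of P30. On this per-length scale Slc25a4 made up 58.0% of the family at P30 and 53.5% at P6, and Slc25a5 6.50% at P30 and 11.9% at P6.

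All members together took 1.39% ± 0.0475 of the counts at P30 and 1.21% ± 0.0744 at P6 (SD, n = 3 and n = 4). Within the family's counts, dicarboxylate carriers, nearly all through Slc25a11 (20409 counts in P30a, where Slc25a10 had 406 and Slc25a1 had 77), held 7.84% ± 0.218 at P30 and 6.15% ± 0.213 at P6, and amino acid carriers held 6.50% ± 0.325 at P30 and 5.21% ± 0.510 at P6, without overlap. The carnitine carrier held 1.72% ± 0.0505 at P30 and 2.81% ± 0.117 at P6, and the uncoupling-like carriers held 0.0461% ± 0.00172 at P30 and 0.0923% ± 0.0178 at P6. Nucleotide carriers, the bulk of the counts through Slc25a4, held 63.8% ± 1.04 at P30 and 64.6% ± 0.399 at P6, and these ranges overlapped. The phosphate carrier's share was 13.8% ± 0.0732 at P30 and 14.8% ± 0.611 at P6.

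**Figure D3:**
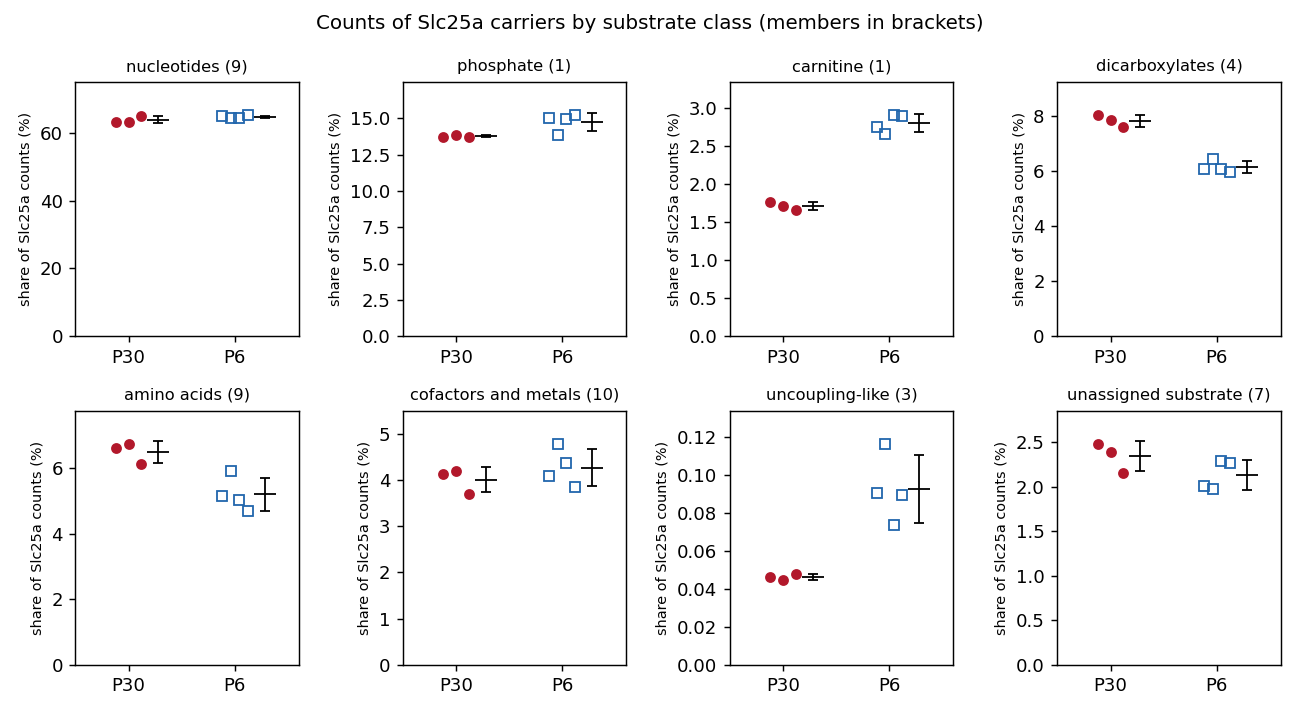
Share of all Slc25a counts (percent, each axis from 0) held by each substrate class in the 3 P30 libraries (circles) and the 4 P6 libraries (squares), with mean and SD in black; the number of members is in brackets. Dicarboxylate carriers, nearly all Slc25a11, and amino acid carriers hold more at P30 and the carnitine carrier less, while the nucleotide carriers overlap.

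Balance within pairs of related carriers was measured as the share of the first gene in the counts of both, in each library. In 9 pairs a two-sided exact permutation test over the 35 assignments of libraries to ages gave a raw p under 0.05 in 3, and 0 passed after Benjamini-Hochberg adjustment over the 9. The smallest p that 3 against 4 libraries allow is 0.0286, which each of the 3 reached, with an adjusted p of 0.0857. No pair could pass unless more of the 9 also reached this minimum, so the adjusted test cannot decide for a single pair. Slc25a4 made up 93.3% ± 0.216 of its sum with Slc25a5 at P30 and 87.5% ± 0.685 at P6 (SD), higher in all 3 P30 libraries. Slc25a42 made up 74.1% ± 1.20 of its sum with Slc25a16 at P30 and 54.7% ± 1.96 at P6. Slc25a29 made up 45.4% ± 5.02 of its sum with the ornithine carrier Slc25a15 at P30 and 6.07% ± 1.84 at P6. Per kilobase the same 3 measures were 89.9%, 73.8% and 59.0% at P30, against 81.8%, 54.4% and 10.1% at P6.

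The share of Slc25a23 with Slc25a24 was 97.3% ± 1.25 at P30 and 91.2% ± 3.28 at P6 (exact p = 0.0571), and that of Slc25a39 with Slc25a40 was 94.96% ± 1.02 at P30 and 91.7% ± 1.39 at P6 (exact p = 0.0571). In both pairs every P30 share was above every P6 share. Slc25a12 made up 68.7% ± 1.73 of the aspartate/glutamate pair at P30 and 64.8% ± 2.52 at P6 (exact p = 0.114). The sum of that pair was 743 ± 14.4 CPM at P30 and 455 ± 4.91 CPM at P6, with both members higher at P30. Slc25a4 and Slc25a5 together had 9376 ± 576 CPM at P30 and 7280 ± 670 CPM at P6, although Slc25a5 was lower at P30. Shares within the mitoferrins, the pyrimidine nucleotide carriers and the glutamate carriers had exact p-values of 0.229, 0.686 and 0.514.

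**Figure D4:**
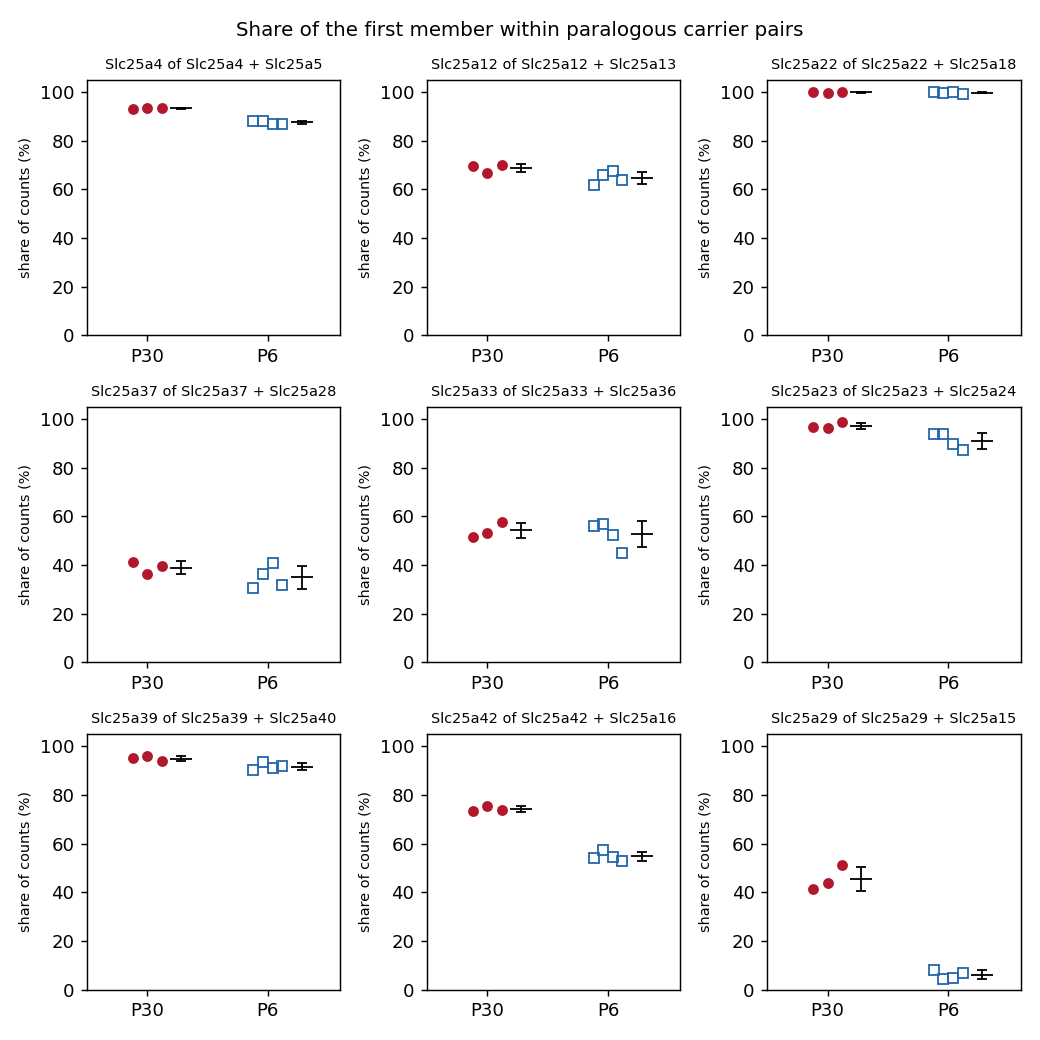
Share (percent of the counts of both genes) of the first member of 9 related pairs in the 3 P30 libraries (circles) and the 4 P6 libraries (squares), with mean and SD in black. The points of the 2 ages stand clearly apart for Slc25a29, Slc25a42 and Slc25a4. They lie closer without overlap for Slc25a23 and Slc25a39, and overlap for Slc25a12, Slc25a33, Slc25a37 and Slc25a22.

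Of 27 symbols listed for other transport genes of the mitochondrial membranes, 18 were found in the count table. Mpc1, Mpc2 and Mcu were among those not found under these symbols. Of the 17 tested, 5 were higher at P30 and 3 were lower, beside 26.3% and 27.8% of all genes. The counts of the genes found do not stand out from the background. Letm1, a cation exchanger, had 318 ± 15.9 CPM at P30 and 192 ± 16.7 CPM at P6 (log2 fold change 0.73). The higher genes also included the ABC transporters Abcb6 and Abcb10 and the sideroflexin Sfxn5. Tspo, a protein of the outer membrane, had 46.9 ± 1.97 CPM at P30 and 98.7 ± 12.7 CPM at P6 (-1.07). The sideroflexin Sfxn3 was lower as well. In the import route that inserts carriers into the inner membrane, 1 of 8 tested genes was higher and 1 was lower, beside 26.3% and 27.8% of all genes. Timm22, the channel subunit, had 57.5 ± 6.01 CPM at P30 and 42.1 ± 4.35 CPM at P6, and Timm13, a chaperone of the space between the membranes, had 58.8 ± 9.39 CPM at P30 and 90.5 ± 11.1 CPM at P6.

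Some gene features were set beside the calls. The members on the X chromosome are 3, Slc25a5, Slc25a14 and the untested Slc25a43. Both tested ones were lower at P30, as were 27.8% of all genes. The 5 members with the longest coding sequences (Slc25a12, Slc25a13, Slc25a23, Slc25a24 and Slc25a25) are the calcium-regulated ones, with 1401 to 2031 coding bases against at most 1254 in the others. Of these 5, 2 were higher and 1 was lower, beside 26.3% and 27.8% of all genes, and 2 were not called. The median transcript length was 2606.5 bases for the higher members, 1914 bases for the lower and 3479.5 bases for those not called. Exons of 7 members overlap those of another gene of the table. Besides Slc25a35 these include Slc25a11 (with Rnf167), Slc25a25 (with Naif1) and Slc25a26 (with Lrig1), all on opposite strands, so their counts may hold reads of the partner. In the authors' deposited table of the same comparison, 18 members were higher and 10 lower at an adjusted p of 0.05, and all 38 members tested here were called alike. The share of all genes called in that table was not computed.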

How the data were processed

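The authors deposited a table of whole read counts per gene. Per the submitters' processing notes, CASAVA 1.8, STAR 2.5.3a, featureCounts (Subread 1.5.2) and DESeq2 were used with mm10; no source used here gives the strand setting, the annotation or the handling of multi-mapping reads. Per the labels' protocols, 10 ng of RNA was amplified by SMART-Seq v4 in 8 PCR cycles. The authors deposited a second table, a DESeq2 comparison with, per the file headers, baseMean as a signal, log2 fold changes, a Wald statistic as a score, and p-values; it was used only to compare calls. The age in each count column's name set its group.

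Tests used edgeR 4.0.16 (R 4.3.3): filterByExpr, TMM and the quasi-likelihood F test for age, with Benjamini-Hochberg adjustment over 12561 genes. The filter asks for 0.613 CPM in 3 libraries. The SE is the log2 fold change over the square root of F. The lowest chi-square per gene between libraries of an age was 12.31, so no library repeated another. The number of libraries and their counts set the precision. DESeq2 1.42.0, limma 3.58.1 (voom), other scalings, filters, a length correction and leaving out libraries were alternatives. The test was tried on simulated data. Lengths and positions came from GENCODE M21 (GRCm38), copies from BLAST+ 2.17.0, promoters from RefSeq GRCm38.p6. The named genes are all members, called genes of the context lists, and some uncalled or untested genes of the context and marker lists. Markers are otherwise given as sums. Members, lists and motifs were chosen with earlier results of these data known. Protein sequences were not used here. Of the tested members 1, and some of the context genes, are counted but not reported here by name.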

Additional observations from a re-analysis of the deposited data

Results flagged for a closer look

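Slc25a10, the dicarboxylate carrier, had 1 library that stood apart within its age. P6d had 31.1 CPM, whereas the other 3 P6 libraries had 34.6 to 35.3 CPM, and this gap was 0.838 of the range of the 4 values, above the 95% critical value of Dixon's test. The P30 libraries reached at most 27.5 CPM, so P6d still lay above all of them. A total of 48 sets of 4 P6 values were examined in this way, and chance marks about 1 in 20.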

How the results depend on the processing

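Over 14 alternatives, 7 of which left out a library, 19 of the 28 called carriers kept the call in every setting that tested them. The other 9 (Slc25a3, Slc25a14, Slc25a16, Slc25a20, Slc25a31, Slc25a33, Slc25a37, Slc25a40 and Slc25a45) lost it in at least 1, and Slc25a28, Slc25a36 and Slc25a44 gained one. The number called was 22 to 28 when a library was left out (28 with all), with 15 to 19 higher at P30 and 6 to 9 lower; the 6 came without P30b. With a floor of 10 CPM in 3 libraries, which tests fewer members (30), 6 were lower and 4 were called with at least 2-fold change. Library totals in place of TMM moved the all-gene median log2 fold change to -0.20, and left 15 members higher and 10 lower. They turned the sign of 2 uncalled members, Slc25a15 (-0.041) and Slc25a39 (-0.056). The share of all genes called was not computed under the 14 alternatives, so the counts of members called under them have no background beside them. The family's share of counts, 0.179 percentage points greater at P30, differed by 0.0675 points once the 10 most counted genes, which include Slc25a4, were taken out. With a library left out, the exact test of the pair shares cannot go below 0.1 or 0.0667, so that count was not recomputed. Slc25a31, Slc25a45 and the 6 untested members had few counts, and whether more depth would change their values was not tested. No paired analysis was possible because the count columns carry letters that the labels tie to no title number, so the replicate block was not run.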
